A study of Rattus norvegicus with 24 samples.

Results

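The genes described here are 9 rat genes of the brain's blood vessels: 3 efflux pumps (Abcg2, Abcb1a, Abcc4), 3 uptake carriers (Slco1c1, Slc2a1, Slc7a5), 2 receptors for vascular endothelial growth factor (Kdr, Flt1) and 1 tight junction protein (Cldn5). They were taken by gene name from the array and are measured by 11 of its 41012 probes, with 2 probes each for Abcc4 and Flt1. Their treated over saline ratios were known when they were chosen, Abcg2 for a shift of similar size in every region and the others as vascular genes to set beside it. Those ratios are therefore given as a description. Where members are counted against the threshold of the fit over all probes, nothing is read from the count.

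The rats were male Wistar rats given 1 intraperitoneal injection of MK-801, which blocks the channel of NMDA-type glutamate receptors, at 0.16 mg/kg (high dose) or 0.08 mg/kg (low dose), or of saline. Of 9 rats, 3 received saline. The sample titles also carry the word Control for every group, which the titles do not explain. The brains, removed 40 min later, were divided into cerebral cortex, hippocampus, amygdala, ventral striatum, hypothalamus and midbrain. Their age is 9 weeks in the sample labels and 10 weeks in the design text. Each of the 24 arrays set RNA of treated rats against saline RNA from that region, and each region and dose had 1 pair of arrays with the dyes exchanged. Cages held 3 rats, and how cages related to groups is not stated. The labels do not say how many rats went into an RNA sample or whether the arrays of a pair held different samples, so a pair was averaged and counted as 1 value. All regions came from the same rats and both doses were set against saline RNA, so an effect of the drug and a difference between these rats that was there before the injection cannot be told apart. Each region lay on 1 slide of its own, so slide and region cannot be told apart either. The adjusted p-values below, from limma fits over the 6 regions, measure the spread between regions and not between animals.

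The endothelial cells of brain capillaries are joined by tight junctions, so solutes cross mainly through transporters in their membranes. Pumps of the ABC family on the side facing the blood push drugs and other lipophilic compounds back out, while carriers of the SLC families bring in glucose, amino acids and hormones. Vascular endothelial growth factor acts on these cells through Kdr, its main signalling receptor, and Flt1, which binds the factor more tightly and signals less.

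Some of the probe sequences are given 5′ to 3′ as on the array. They are the single Abcg2 probe, on which every Abcg2 value rests, and, for genes with 2 probes, both Abcc4 probes and the brighter Flt1 probe.
Abcg2: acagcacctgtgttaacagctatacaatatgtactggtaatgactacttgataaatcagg
Abcc4 brighter probe: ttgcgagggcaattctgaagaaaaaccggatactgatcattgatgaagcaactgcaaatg
Abcc4 dimmer probe: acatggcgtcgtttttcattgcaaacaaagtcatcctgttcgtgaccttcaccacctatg
Flt1 brighter probe: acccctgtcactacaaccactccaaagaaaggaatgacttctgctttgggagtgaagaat
The array files place them on the rn3 build of the rat genome. The Abcg2 probe (NM_181381) is at chr4:87802630-87804206, a span of 1577 bases for a probe of 60, so its match there is interrupted. The Abcc4 probes (NM_133411) are at chr15:103416879-103416938 and chr15:103544596-103544655, and the brighter Flt1 probe (NM_019306) is at chr12:7954639-7971736. Exon positions are not given, because rn3 gene models were not used.

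The remaining probes of the group are single places on rn3. Abcb1a (NM_133401) is at chr4:21795859-21795918, Slco1c1 (NM_053441) at chr4:179251644-179251703, Slc2a1 (NM_138827) at chr5:139724005-139724064 and Slc7a5 (NM_017353) at chr19:52126270-52126329. The dimmer Flt1 probe is at chr12:8065567-8065626. Cldn5 (NM_031701) lies on the unplaced part of chromosome 11, and the files print no position for Kdr (NM_013062). The Slc2a1 probe is spotted 10 times on each array, and the others once.

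All but 1 of these probes were bright enough to be tested, which required a signal well above background in at least 50% of the 48 channels. Abcg2, Abcb1a, the brighter Abcc4 probe, Slco1c1, Slc2a1, Slc7a5, Kdr and Cldn5 passed in 100% of channels. The Flt1 probes passed in 97.9% and 95.8%. The dimmer Abcc4 probe passed in 47.9% of channels and was not tested. Over the arrays, 58.3% to 84.4% of spots were well above background, and the number of arrays limits the precision.

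Abcg2, the pump also called breast cancer resistance protein, was higher in treated than in saline RNA on all 24 arrays. On the 12 high-dose arrays the log2 ratio of treated over saline had a lowest value of 0.44, a median of 0.71 and a highest of 0.98. On the 12 low-dose arrays these were 0.44, 0.52 and 0.91. The ratios of both doses thus lay wholly above 0 and overlapped each other.

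At the high dose, the Abcg2 ratio was 0.64 in cortex, 0.63 in hippocampus, 0.54 in amygdala, 0.83 in ventral striatum, 0.74 in hypothalamus and 0.73 in midbrain. The mean was 0.69 ± 0.10 (SD over 6 regions; SE of the fit 0.04), which is 1.61-fold, with regions between 1.46-fold and 1.78-fold. At the low dose it was 0.48 in cortex, 0.49 in hippocampus, 0.51 in amygdala, 0.75 in ventral striatum, 0.56 in hypothalamus and 0.51 in midbrain. The low-dose mean was 0.55 ± 0.10 (SD, 6 regions; SE 0.04), or 1.46-fold, between 1.39-fold and 1.68-fold. The ventral striatum had the highest value at each dose, and the other low-dose regions lay within 0.48 to 0.56.

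Among all probes tested, the Abcg2 mean ranked 15 from the top of 28850 at the high dose and 17 from the top of 28851 at the low dose. The spread between regions was small against the size of the shift, not small in itself: its SD was larger than that of 82.1% of probes for the high dose and 81.2% for the low dose. Every region differed from 0 by more than the median SD over regions of all probes. That median was 0.0713 for the high dose and 0.0718 for the low dose. Abcg2 was chosen for a shift in these same ratios, so its rank and its distance from 0 are a description and no support.

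**Figure D1:**
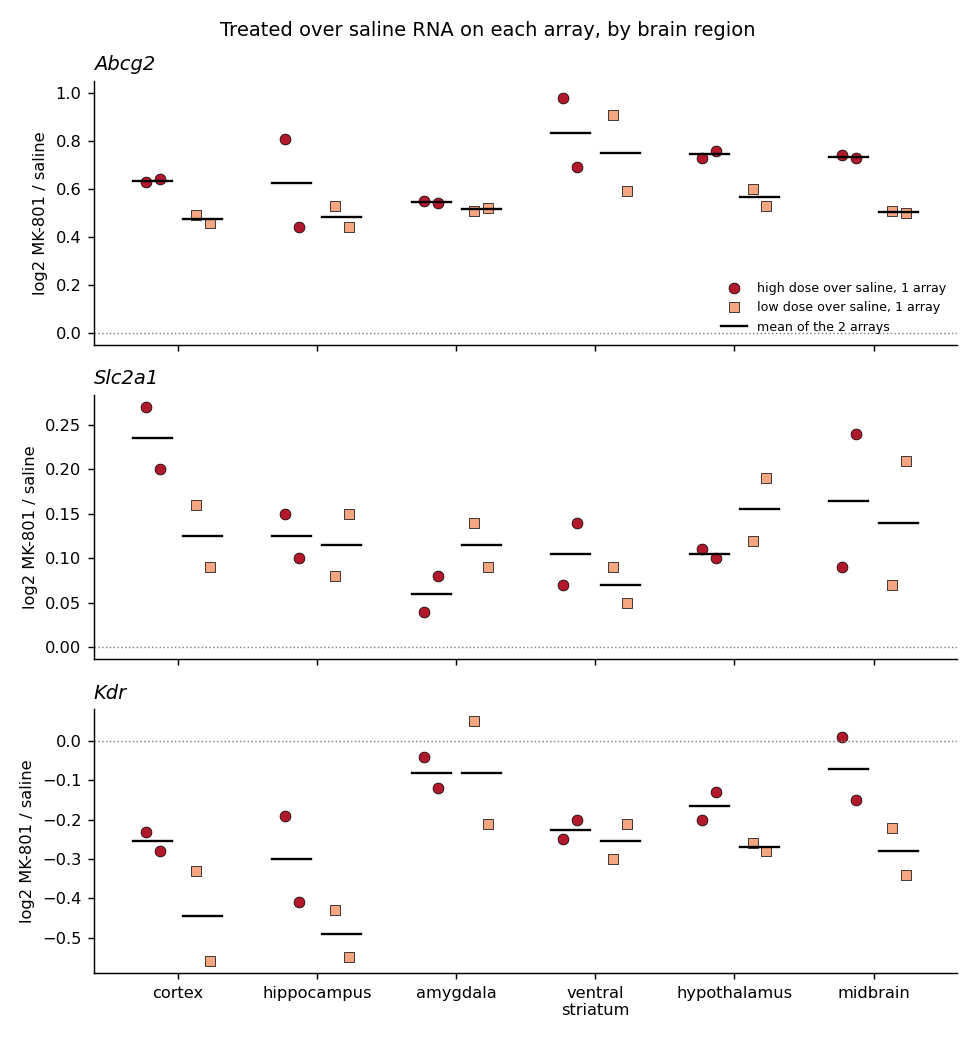
Log2 ratio of MK-801 over saline RNA for Abcg2, Slc2a1 and Kdr (vertical axes, each with its own scale) on each array, by brain region (horizontal axis). Circles are high-dose and squares low-dose arrays, and black lines are the mean of the 2 arrays of a dye-swapped pair; Abcg2 lies between 0.44 and 0.98 on every array, Slc2a1 lies above 0 on every array, and Kdr lies below 0 on 11 of 12 arrays at each dose.

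The Abcg2 ratio was larger for the high dose than for the low dose in 6 of 6 regions. The difference of the log2 ratios, high minus low, was 0.16 in cortex, 0.14 in hippocampus, 0.03 in amygdala, 0.08 in ventral striatum, 0.18 in hypothalamus and 0.23 in midbrain. Its mean was 0.14 ± 0.07 (SD, 6 regions; SE 0.03), or 1.10-fold. Both doses were compared with saline RNA of the same group of rats.

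The level of Abcg2 itself varied more between arrays than the ratio did. On a log2 brightness scale, treated RNA on the high-dose arrays had a lowest level of 9.77, a median of 10.16 and a highest of 10.88, against 9.10, 9.53 and 10.15 in saline RNA on the same arrays. On the low-dose arrays, treated RNA had 8.42, 9.93 and 10.39, against 7.98, 9.30 and 9.88 in saline RNA. The level ranges of treated and saline RNA overlapped, while within every array treated RNA was the brighter.

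In the hypothalamus, treated RNA had Abcg2 levels of 9.83 and 10.07 on the high-dose arrays, against 9.10 and 9.31 in saline RNA. On the low-dose arrays treated RNA had 8.69 and 8.73, against 8.09 and 8.20 in saline RNA. The 2 pairs of saline channels of the same region thus did not overlap, while the treated over saline ratio stayed between 0.53 and 0.76 on the 4 arrays. In the hippocampus treated RNA had 10.14 and 9.97 on the high-dose arrays, against 9.33 and 9.53 in saline RNA. On the low-dose arrays there, treated RNA had 9.73 and 8.42, against 9.20 and 7.98 in saline RNA. Here too the saline channels of the 2 doses did not overlap, with ratios between 0.44 and 0.81.

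The dye exchange bears on these ratios. The dye effect, 0.5 times the difference of the arrays with treated RNA in Cy5 minus those with it in Cy3, averaged 0.05 for Abcg2 over 12 pairs and lay between -0.02 and 0.18. It averaged 0.15 for Abcb1a, -0.23 for Cldn5, -0.09 and -0.07 for the brighter and dimmer Abcc4 probes, and 0.07 and 0.08 for those of Flt1. Single arrays of those genes thus carry a dye effect larger than their mean ratio. For Slco1c1 the dye effect averaged 0.09, close in size to its mean ratios of -0.10 for the high and -0.12 for the low dose. Averaging the pair cancels it. Arrays were scanned on 3 days, with 2 regions a day, and Abcg2 averaged 0.73, 0.64 and 0.69 within these days at the high dose and 0.61, 0.51 and 0.52 at the low dose.

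Ratios of the other efflux pumps lay near 0. Abcb1a, which encodes a P-glycoprotein, the pump whose substrates overlap most with those of Abcg2, had high-dose log2 ratios of 0.04 in cortex, -0.01 in hippocampus, -0.04 in amygdala, 0.11 in ventral striatum, 0.06 in hypothalamus and 0.07 in midbrain. The low-dose values were -0.04, -0.06, 0.06, 0.09, 0.06 and 0.02 in the same regions. The means were 0.04 ± 0.06 for the high dose and 0.02 ± 0.06 for the low dose (SD, 6 regions), and both signs occurred at each dose.

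Abcc4, a pump of organic anions such as cyclic nucleotides and drug conjugates, averaged 0.05 ± 0.11 for the high dose and 0.04 ± 0.10 for the low dose by its brighter probe (SD, 6 regions). Its regions ran from -0.06 to 0.23 at the high dose and from -0.07 to 0.18 at the low dose. The dimmer probe averaged -0.05 ± 0.07 for the high dose and -0.03 ± 0.04 for the low dose. The Abcc4 probes disagreed in sign, and each lay within 0.05 of 0.

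Among the carriers, Slc2a1, the glucose transporter of the barrier (GLUT1), was higher in treated RNA on all 24 arrays by a small amount. Its log2 ratio had a lowest value of 0.04, a median of 0.11 and a highest of 0.27 on the high-dose arrays. On the low-dose arrays these were 0.05, 0.10 and 0.21. No array of either dose lay at or under 0.

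By region, Slc2a1 had 0.24 in cortex, 0.13 in hippocampus, 0.06 in amygdala, 0.11 in ventral striatum, 0.11 in hypothalamus and 0.17 in midbrain at the high dose. For the low dose it had 0.13, 0.11, 0.11, 0.07, 0.16 and 0.14 in those regions. The means were 0.13 ± 0.06 (1.10-fold) for the high dose and 0.12 ± 0.03 (1.09-fold) for the low dose (SD, 6 regions). The SD was larger than that of 35.6% of probes for the high dose and of 3.46% for the low dose. The Slc2a1 value is an average of 10 spots on each array, and the part of that averaging in its SD was not tested.

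Slco1c1, a carrier of thyroxine and of organic anions, was lower in treated RNA on most arrays. It had -0.20 in cortex, -0.11 in hippocampus, -0.06 in amygdala, 0.02 in ventral striatum, -0.19 in hypothalamus and -0.04 in midbrain at the high dose, with a mean of -0.10 ± 0.09 (SD). Low-dose values were -0.10, -0.21, -0.10, -0.04, -0.17 and -0.09, with a mean of -0.12 ± 0.06 (SD). It was below 0 on 10 of 12 arrays at each dose. Its dye effect lay between 0.02 and 0.17 over the pairs, so the array with treated RNA in Cy3 was the lower of every pair.

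Slc7a5, which with Slc3a2 forms the carrier of large neutral amino acids, averaged -0.03 ± 0.06 for the high dose and 0.05 ± 0.07 for the low dose (SD, 6 regions). Its regions ran from -0.12 to 0.04 at the high dose and from -0.02 to 0.17 at the low dose. The high minus low difference was negative in 6 of 6 regions and averaged -0.09 ± 0.03 (SD), a spread smaller than that of all but 2.45% of probes.

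Kdr was the member furthest below 0. Its array ratios had a lowest value of -0.41, a median of -0.20 and a highest of 0.01 at the high dose, and of -0.56, -0.29 and 0.05 at the low dose. By region, it had -0.26 in cortex, -0.30 in hippocampus, -0.08 in amygdala, -0.23 in ventral striatum, -0.17 in hypothalamus and -0.07 in midbrain at the high dose. Low-dose Kdr values were -0.45, -0.49, -0.08, -0.26, -0.27 and -0.28. The amygdala was at -0.08 at each dose, and cortex and hippocampus were lowest at each.

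The Kdr means were -0.18 ± 0.09 (0.881-fold) for the high dose and -0.30 ± 0.15 (0.81-fold) for the low dose (SD, 6 regions). High minus low averaged 0.12 ± 0.09 (SD), positive in 5 of 6 regions and 0.00 after rounding in the amygdala.

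Flt1 ratios lay near 0. Its brighter probe averaged -0.04 ± 0.08 for the high dose and 0.02 ± 0.09 for the low dose, and its dimmer probe -0.02 ± 0.07 and -0.04 ± 0.09 at those doses (SD, 6 regions). Both signs occurred among the regions of each probe at each dose.

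Cldn5, the main claudin of the barrier's tight junctions, had 0.03 in cortex, -0.06 in amygdala, 0.10 in ventral striatum, -0.12 in hypothalamus and 0.15 in midbrain at the high dose. Its hippocampus value is missing there because the spot was an outlier on 1 array of the pair, so the mean of 0.02 ± 0.11 (SD) is over 5 regions. In low-dose RNA it averaged -0.03 ± 0.09 (SD, 6 regions), between -0.13 and 0.10.

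**Figure D2:**
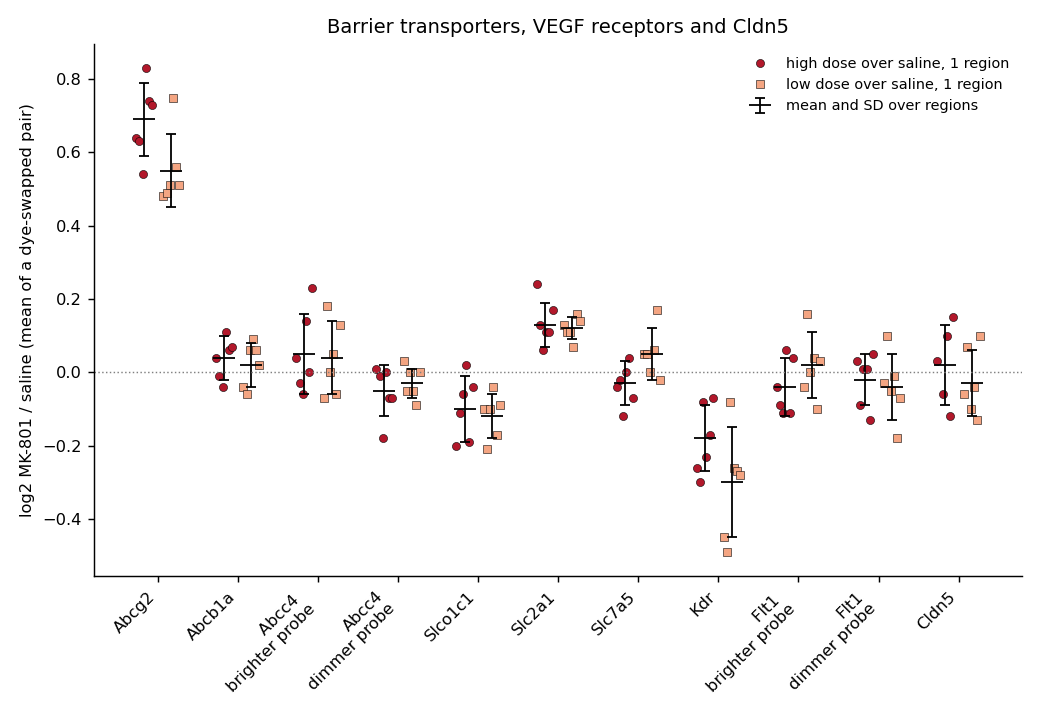
Log2 ratio of MK-801 over saline RNA (vertical axis; mean of a dye-swapped pair) for the 11 probes (horizontal axis), with 1 point per region, circles for the high and squares for the low dose. Bars are mean and SD over regions: Abcg2 averages 0.69 and 0.55, Slc2a1 0.13 and 0.12, and Kdr -0.18 and -0.30, while the remaining probes average between -0.12 and 0.05.

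Of the 10 member probes tested, 3 were past limma adjusted p under 0.05 at the high dose, where 1.92% of 28850 probes were. Abcg2 and Slc2a1 were the 2 higher (1.02% of all probes) and Kdr the 1 lower (0.898%). At the low dose 4 of 10 were past it, where 2.33% of 28851 probes were: Abcg2 and Slc2a1 higher (1.16%), Slco1c1 and Kdr lower (1.18%). At an unadjusted p under 0.05 there were 4 of the 10 at each dose, where 11.8% of all probes were for the high dose and 12.7% for the low dose. Nothing is read from these counts. The median of the 10 means was 0.00 for the high dose and 0.02 for the low dose, against -0.002 and 0.0017 over all probes.

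Between the doses, 0 of the 10 were past the threshold by limma, where 1.54% of 28587 probes were (0.899% higher and 0.64% lower at the high dose). At an unadjusted p under 0.05 there were 4, where 10.8% of all probes were. The shares of all probes given here and above, at adjusted and at unadjusted p, are also the base for the list counts below.

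Before any treatment effect, the members differed between regions in their level in saline RNA, given here as log2 brightness with the SD of 4 saline channels. These channels may share RNA and each region is 1 slide, so the levels are a description. The order of regions is given within a probe only. Abcg2 was highest in midbrain, at 9.90 ± 0.18, followed by amygdala (9.72 ± 0.29), ventral striatum (9.44 ± 0.27), cortex (9.37 ± 0.21), hippocampus (9.01 ± 0.70) and hypothalamus (8.67 ± 0.62). No neighbours in that order differed by more than the larger of their SDs, and the ends differed 2.35-fold.

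Abcb1a had a like order, with midbrain at 9.36 ± 0.19, ventral striatum at 9.06 ± 0.18, amygdala at 8.85 ± 0.21, cortex at 8.81 ± 0.22, hypothalamus at 8.04 ± 0.02 and hippocampus at 7.99 ± 0.14. Midbrain stood above ventral striatum, and cortex above hypothalamus, by more than the SD. The ends differed 2.58-fold. Over the 6 regions the saline levels of Abcb1a and Abcg2 correlated with r = 0.91, a description only, since 486 of 28987 probes exceeded 0.9 and all points share the same arrays.

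Kdr was highest in amygdala (13.23 ± 0.23) and midbrain (13.17 ± 0.10), which lay within the spread of each other. Hypothalamus (12.84 ± 0.10), ventral striatum (12.81 ± 0.33) and cortex (12.61 ± 0.11) followed, and hippocampus was lowest at 11.99 ± 0.24, below cortex by more than the SD. The ends differed 2.36-fold. Slc2a1 ran from 13.61 ± 0.11 in midbrain to 13.16 ± 0.14 in hippocampus (1.37-fold), with midbrain, ventral striatum and hypothalamus within the spread of each other.

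For the remaining probes the ends of the order were amygdala over hippocampus for Slco1c1 (1.6-fold), midbrain over hippocampus for Slc7a5 (1.49-fold), and hypothalamus over cortex for Cldn5 (1.44-fold). The brighter Abcc4 probe ran from hippocampus to cortex (1.61-fold) and the brighter Flt1 probe from hypothalamus to hippocampus (1.21-fold). The hippocampus was lowest for Abcb1a, Slco1c1, Slc2a1, Slc7a5, Kdr and the brighter Flt1 probe. Only for Kdr did it lie below the next region by more than the larger SD. For Cldn5 and the dimmer Flt1 probe the hippocampus was next to the highest. In whole tissue, fewer vessel cells and less RNA per cell cannot be told apart.

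**Figure D3:**
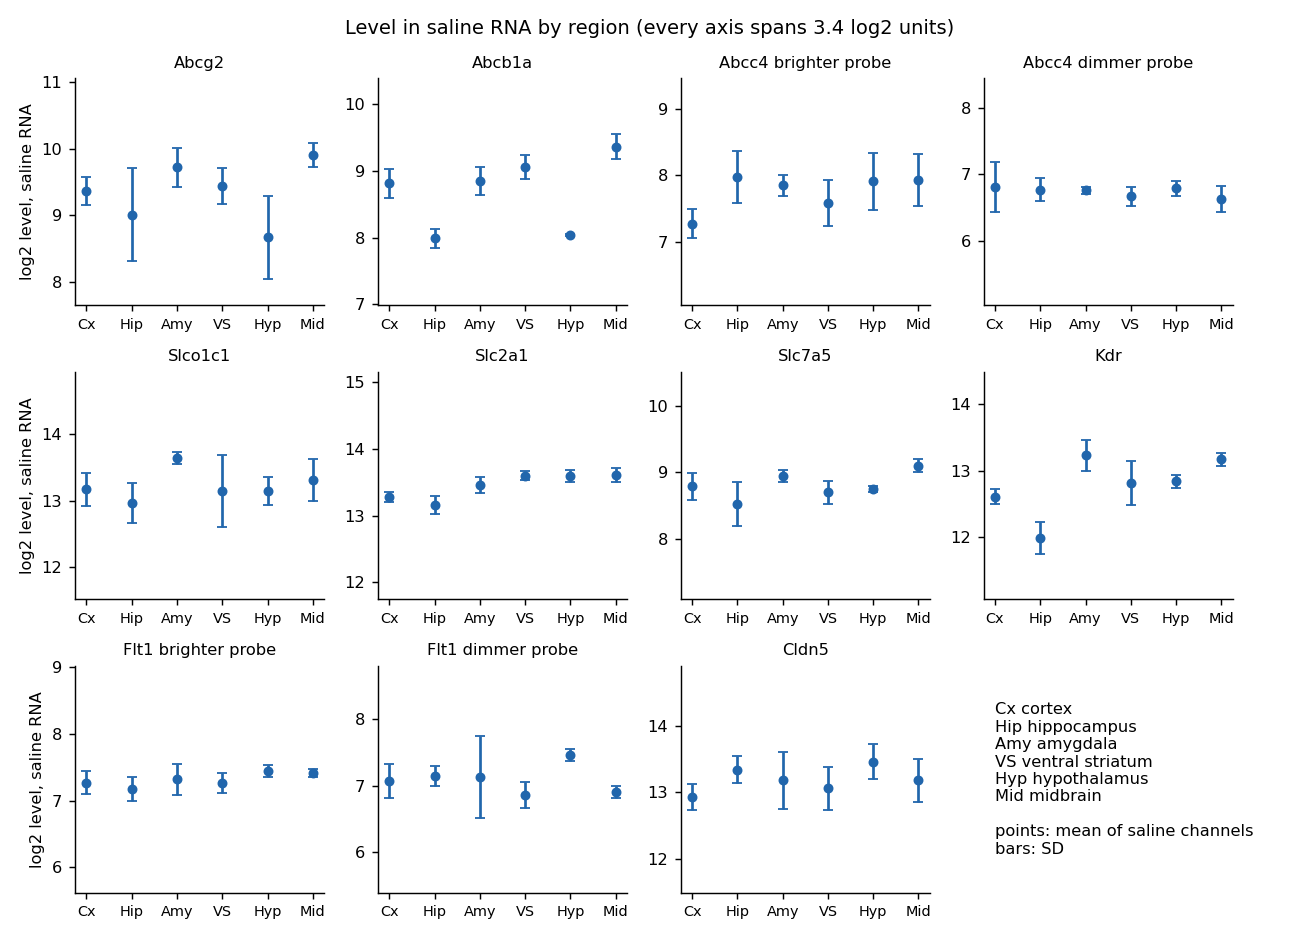
Log2 level in saline RNA (vertical axes, each spanning the same number of log2 units) by region (horizontal axes) for each of the 11 probes; points are means and bars SDs of 4 saline channels (3 for Cldn5 in hippocampus). Abcg2, Abcb1a and Kdr vary most between regions, by 2.35-fold, 2.58-fold and 2.36-fold.

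Markers of the endothelium itself were at hand to set beside these ratios. Of the defining markers, Tek, Tie1, Vwf and Emcn were well above background in 100% of saline channels and Cdh5 in 95.8%, while Cd34 was in 54.2% and Pecam1 in 41.7%. The summed brightness of these 7 markers ran from 11.11 to 11.73 in high-dose RNA, against 11.10 to 11.63 in saline RNA on those arrays. It ran from 11.20 to 11.63 in low-dose RNA, against 11.34 to 11.69 in saline RNA. The log2 ratio of the sums averaged -0.04 at the high dose (regions -0.12 to 0.11) and -0.08 at the low dose (regions -0.18 to 0.01).

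A second set of barrier transporters held 24 tested genes that are not members. They were chosen by function, with earlier results of these data known. At the high dose 1 rose and 1 fell, at the low dose 1 rose, and the list median was 0.00 and 0.01 at these doses. Mfsd2a, which carries docosahexaenoic acid across the barrier and restrains transcytosis, rose by 0.18 ± 0.02 (SE) at the high dose (limma adjusted p = 0.00113) and by 0.21 ± 0.02 (SE) at the low dose (adjusted p = 0.000331). Its regions lay between 0.13 and 0.21 at the high dose and between 0.16 and 0.25 at the low dose. The high-dose call was lost when arrays were only median-centred (log2 ratio 0.13, adjusted p = 0.724). The other Mfsd2a probe averaged 0.11 for the high and 0.14 for the low dose.

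Slc39a8, a carrier of zinc and manganese, was the gene that fell, by 0.17 on the log2 scale at the high dose (limma adjusted p = 0.0086), with -0.05 in hippocampus and -0.18 to -0.21 in the other regions. Its low-dose mean was -0.11 (adjusted p = 0.114). Its call too was lost with median centring, at adjusted p = 0.242. The other Slc39a8 probes gave -0.12 and -0.05 for the high dose and -0.11 and -0.02 for the low dose, the last named at each dose being untested. Between the doses 0 of the 24 passed by limma, with 4 at an unadjusted p under 0.05. Abcb1b, the second rat P-glycoprotein, averaged 0.04 at each dose, and Slc3a2, the partner of Slc7a5, 0.01 for the high and 0.04 for the low dose. No gene of this list reached the size of the Abcg2 shift, the list's maximum being 0.18 for the high and 0.21 for the low dose. Abcg2 was chosen for its shift in these ratios, so this contrast is a description.

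Among 15 tested genes of endothelial junctions and caveolae, such as Tjp1, Esam, Cdh5 and Cav1, 0 passed in any comparison by limma, with 1 at an unadjusted p under 0.05 in each. The list lay between -0.08 and 0.08 at each dose, with a median of -0.02 at each. Tjp1, a scaffold of tight junctions, averaged -0.08 for the high and -0.03 for the low dose, and Cdh5, the cadherin of endothelial junctions, 0.01 and 0.00.

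Of 21 tested genes of VEGF, angiopoietin and Notch signalling, 0 passed for the high and 0 for the low dose by limma, with 6 and 7 at an unadjusted p under 0.05 (11.8% and 12.7% of all probes). The medians were -0.02 and -0.04. Vegfa, the ligand of Kdr and Flt1, averaged -0.06 (adjusted p = 0.448) for the high and -0.10 (adjusted p = 0.119) for the low dose. Nrp1, a co-receptor of Kdr, averaged -0.05 and -0.04 at these doses, Tek -0.03 and -0.04, and Notch4 0.10 and 0.09. Between the doses Angpt2, an antagonist of the Tek receptor, was higher at the high dose by 0.29 ± 0.07 (SE; limma adjusted p = 0.0465). Its other probes gave 0.09 and 0.00, and the call was lost without any 1 of 5 regions, the amygdala being the exception, and under 5 of 8 other settings, up to adjusted p = 0.154.

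Among 23 tested genes of endothelial identity, 1 rose and 2 fell at the high dose and 1 rose at the low dose, with medians of -0.03 and -0.04. Foxq1, a forkhead factor of brain endothelium, rose by 0.23 at the high dose (limma adjusted p = 0.0462) and by 0.18 at the low dose (adjusted p = 0.0276). Each Foxq1 call was lost without any 1 of 5 regions, the midbrain being the exception for the high dose and the amygdala for the low dose, up to adjusted p = 0.146 for the high dose and 0.12 for the low dose. The high-dose call was also lost with no filter on dim probes, and the low-dose call with the processed signals and the deposited values. Itm2a, a membrane protein enriched in brain endothelium, fell by 0.18 on the log2 scale at the high dose (adjusted p = 0.00628). It passed with each region left out but not with median centring (adjusted p = 0.397), and averaged -0.09 at the low dose.

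Sox18, a transcription factor of endothelial cells, fell by 0.37 on the log2 scale at the high dose (limma adjusted p = 0.0327), with -0.86 in cortex and -0.04 in midbrain at the ends. Its low-dose mean was -0.20 (adjusted p = 0.107). The high-dose call was lost without the hippocampus, amygdala or ventral striatum, up to adjusted p = 0.116, and with the processed signals or the deposited values, up to adjusted p = 0.056. The difference between doses was -0.17 (adjusted p = 0.049), lost without the cortex, hippocampus, amygdala or ventral striatum and under 5 of 8 other settings, up to adjusted p = 0.627. Sox18, Itm2a and Kdr lay below 0 in every region at the high dose.

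Of 13 tested genes of the Wnt and Norrin pathway that maintains the barrier, 0 passed at the high dose by limma, with 2 at an unadjusted p under 0.05, and 1 fell at the low dose. That gene was Tnfrsf19, a receptor gene induced by Wnt signals, at -0.13 (limma adjusted p = 0.0238), a call lost without the cortex, hippocampus, ventral striatum or midbrain and under 4 of 8 other settings, up to adjusted p = 0.172. It averaged 0.08 at the high dose, and the difference between doses, 0.21 ± 0.04 (SE; adjusted p = 0.00467), passed with each region left out but not with median centring (adjusted p = 0.0759). Lef1, Axin2 and Apcdd1, other targets of the pathway, averaged -0.05, 0.03 and 0.00 at the high dose and -0.13, 0.01 and 0.01 at the low dose and did not pass in any comparison.

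Among 19 tested genes that regulate Abcg2 or share its regulators, 2 rose for the high dose and 1 for the low dose, with a median of 0.01 at each. Tiparp, a target of the aryl hydrocarbon receptor that is also induced by neuronal activity and stress, rose by 0.33 ± 0.05 (SE) at the high dose (limma adjusted p = 0.00228), with 0.52 in cortex, 0.15 in hippocampus, 0.26 in amygdala, 0.51 in ventral striatum, 0.27 in hypothalamus and 0.26 in midbrain. Its low-dose mean was 0.16 (adjusted p = 0.148). The other Tiparp probes gave 0.12 and 0.13 for the high dose and 0.07 and 0.04 for the low dose. The high-dose call was lost with median centring (0.29, adjusted p = 0.081). The difference between doses was 0.16 (adjusted p = 0.27).

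Ndrg1, induced by hypoxia, rose by 0.14 at the high dose (limma adjusted p = 0.049) and by 0.13 at the low dose (adjusted p = 0.0438), each over 5 regions. Each call was lost with all but 1 of the single regions left out, up to adjusted p = 0.199 for the high dose and 0.194 for the low dose. The high-dose call was also lost with median centring (0.07, adjusted p = 0.914), with scan day as a block and with no filter on dim probes. The low-dose call was lost under 5 of 8 other settings, up to adjusted p = 0.155. The other Ndrg1 probe averaged 0.02 for the high and 0.09 for the low dose. No other gene of this list passed. Cpt1a, a fatty acid oxidation gene, averaged 0.05 for the high and 0.11 for the low dose (adjusted p = 0.502 and 0.0912). Nqo1 averaged 0.00 at each dose, Hmox1 0.01 for the high and 0.03 for the low dose, and Cyp1b1 0.02 for the high and -0.12 for the low dose. Cyp1a1, Ahr, Nr1i2 and Pparg were too dim to be tested.

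**Figure D4:**
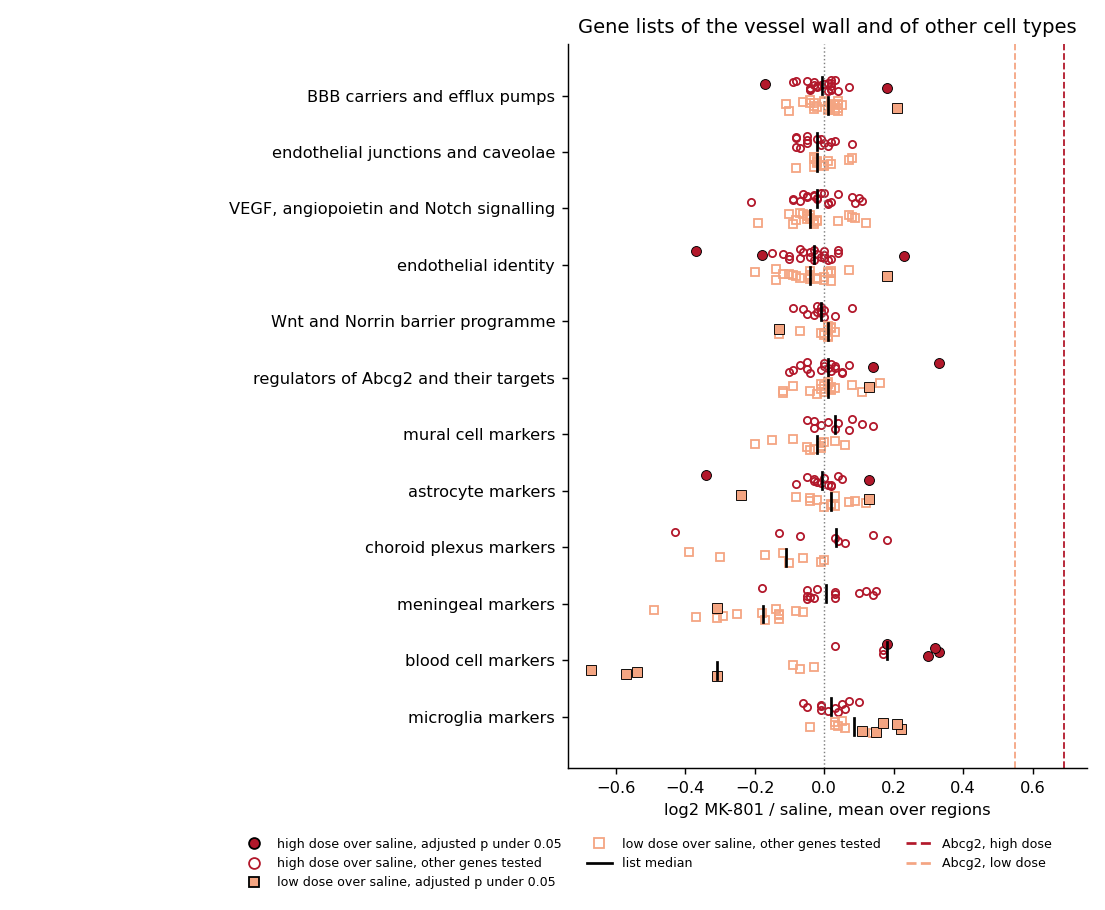
Mean log2 ratio of MK-801 over saline RNA over regions (horizontal axis) for each tested gene of 12 lists (rows), with circles for the high and squares for the low dose; filled symbols passed limma adjusted p under 0.05, black ticks are list medians and dashed lines mark Abcg2 at 0.69 and 0.55. No gene of the vessel-wall lists reaches either dashed line, and the blood cell markers lie on opposite sides of 0 at the high and the low dose.

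Markers of other cells moved with dose in part. Of 7 tested blood cell genes, 4 rose at the high dose, among them Hbb (0.33, limma adjusted p = 0.021), Pf4 (0.32, adjusted p = 0.0012) and Alas2 (0.30, adjusted p = 0.00128). The Hbb call was lost without the cortex, hippocampus or amygdala (up to adjusted p = 0.0892) and with median centring (adjusted p = 0.0836). At the low dose 4 fell, among them Hba-a3 (-0.57, adjusted p = 5.42e-05), Hbb (-0.54, adjusted p = 0.00274) and Hbb-b1 (-0.67 over 5 regions, adjusted p = 0.00121). The summed blood markers ran from 11.17 to 12.47 in high-dose RNA against 10.78 to 12.23 in saline RNA, a mean log2 ratio of 0.32. They ran from 10.44 to 11.76 in low-dose RNA against 10.71 to 12.16 in saline RNA, a mean of -0.34.

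Microglial genes rose at the low dose in 5 of 12 cases (1.16% of all probes), among them C1qc (0.22, limma adjusted p = 0.000426) and Laptm5 (0.21, adjusted p = 0.000339). The C1qa call was lost without the ventral striatum (limma adjusted p = 0.0553). C1qb, also among the 5, kept its call in 1 of 6 fits with a region left out and under 5 of 8 other settings. At the high dose 0 of 12 passed, with 2 at an unadjusted p under 0.05. Mural cell genes passed in no comparison by limma (0 of 11 at the high dose and 0 of 12 at the low dose, with 1 at an unadjusted p under 0.05 at each), and their summed markers averaged -0.02 for the high and -0.05 for the low dose. Of 14 astrocyte genes, Gjb6 rose (0.13, adjusted p = 0.0263) and Sox9 fell (-0.34, adjusted p = 0.000175) at the high dose, and S100b rose (0.13, adjusted p = 0.0139) and Sox9 fell (-0.24 over 5 regions, adjusted p = 0.00263) at the low dose. The Gjb6 call was lost without the cortex, hippocampus, ventral striatum or midbrain (up to adjusted p = 0.101) and with median centring (adjusted p = 0.897). The S100b call was lost without the cortex, ventral striatum or midbrain (up to adjusted p = 0.0697), with median centring (adjusted p = 0.12) and with scan day as a block. The other Sox9 probes gave -0.19, -0.05 and -0.03 for the high dose and -0.19, -0.04 and 0.02 for the low dose. Astrocyte sums averaged -0.05 and -0.04 at these doses.

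RNA of choroid plexus and meningeal markers differed between treated and saline samples of some regions. The summed choroid plexus markers had log2 ratios between -2.22 and 1.34 over the regions at the high dose and between -2.04 and 0.34 at the low dose, and 0 of 8 tested genes passed by limma at either dose, with 0 at an unadjusted p under 0.05 for the high and 1 for the low dose. The summed meningeal markers ran between -0.72 and 0.72 at the high dose and between -1.07 and 0.14 at the low dose. Of 14 meningeal genes, 0 passed at the high dose (1 at an unadjusted p under 0.05) and Slc6a13 fell at the low dose (-0.31, adjusted p = 0.0161), a call lost without the hippocampus (adjusted p = 0.0707). In those same samples the Abcg2 ratio lay between 0.54 and 0.83 at the high dose and between 0.48 and 0.75 at the low dose. The part of these cell types in the members' ratios was not tested.

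Neighbouring genes were measured too. Within 500 kb on each side of the probe on rn3, a window chosen after the values were seen, lay 21 other probes, of which 17 were tested. Their means ran from -0.11 to 0.05 at the high dose and from -0.03 to 0.09 at the low dose, and 0 passed limma adjusted p under 0.05 at either dose. Ppm1k, a mitochondrial phosphatase gene at -182.6 kb from the probe, averaged -0.09 for the high and 0.00 for the low dose. Herc3, a ubiquitin ligase gene on the other side, averaged -0.11 and -0.02 by its 2 probes at the high dose and -0.01 and -0.02 at the low dose. The nearest probe, for the expressed sequence tag AI175616, lay 218 bases away and was well above background in 2.08% of channels, so it gives no second reading of Abcg2.

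**Figure D5:**
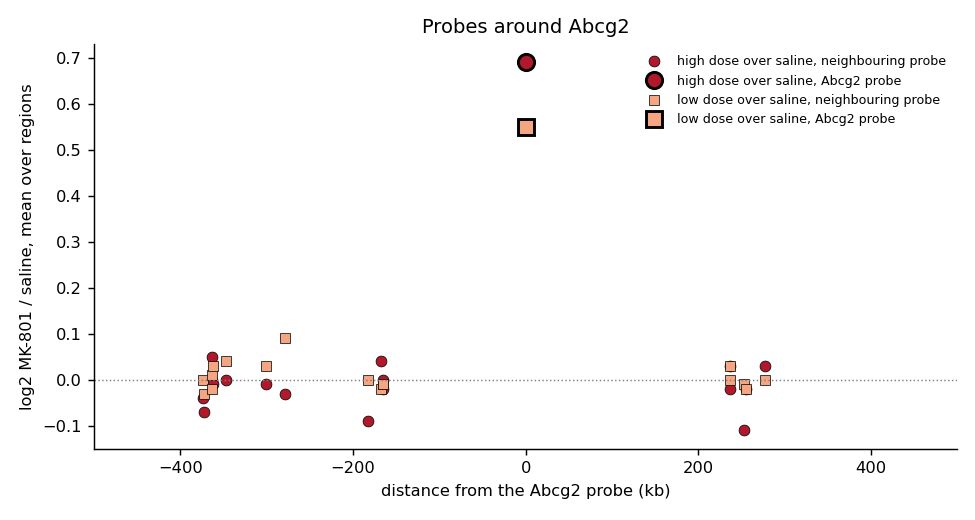
Mean log2 ratio of MK-801 over saline RNA (vertical axis) against distance from the Abcg2 probe in kb (horizontal axis) for Abcg2 and its neighbouring probes, with circles for the high and squares for the low dose. Abcg2 stands at 0.69 and 0.55, and the 17 tested neighbours lie between -0.11 and 0.09.

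The probes whose 12 region and dose ratios came closest to those of Abcg2, by root mean square difference over 25931 other probes, are named here by that measure alone. The closest were 2 expressed sequence tags, AI031053 (difference 0.149, means 0.67 for the high and 0.66 for the low dose) and AI102821 (0.176, means 0.51 at each dose). Then came Ccdc65 (0.184), Cd47 (0.233) and Chmp1b2 (0.243). For Ccdc65, which encodes a protein of motile cilia, the probe averaged 0.82 for the high and 0.40 for the low dose while its other probe gave -0.02 and -0.01. For Cd47, the receptor known as a signal against phagocytosis, the probe averaged 0.56 for the high and 0.30 for the low dose while its other probe gave -0.17 and -0.04. None of the other 10 member probes was among the 5 closest.

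By saline level over the 6 regions, the 5 probes that correlated best with Abcg2 were A_44_P105566 (r = 0.997), Ppib (0.996), Dbt (0.993), Zfp347 (0.992) and BP478914 (0.991). With 6 points and so many probes, these are a description.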

How the data were processed

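Each two-colour Agilent array held the mean and background intensity of both dyes at 43379 spots other than controls. Intensities were extracted with Feature Extraction 9.5.3.1 per the submitters' processing notes. The log10 ratios that the authors deposited as a value table lay within 0.01 of the treated over saline ratio of the scanner's processed signals for 100% of values. In limma 3.58.1 (R 4.3.3), intensities were corrected by normexp (offset 50) and ratios by loess within arrays, with control spots at weight 0 and outlier spots left out. Spots of a probe and arrays of a pair were averaged, and lmFit and eBayes (trend) fitted the mean over 6 regions, with Benjamini-Hochberg adjustment over all probes tested. A probe was tested if well above background in at least 50% of 48 channels and measured in at least 4 regions. Channel levels were scaled between arrays by Aquantile.

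Names came from a RefSeq GRCr8 table, used for names only: 10735 probes matched by accession, 5571 by symbol and 3729 by synonym, and 20977 kept the file's name. A gene of a list is its brightest probe. All member probes are named, with up to 4 genes per list and comparison that passed with the lowest adjusted p, the defining cell markers, and the 5 probes most like Abcg2. Other list genes were named for their role, and C1qb for its lost call, after their values were seen. Members and lists were chosen with earlier results of these data known. The fit was tested on simulated data. Alternatives were another offset, median centring, the processed signals, the deposited table, other filters, 1 probe per gene, scan day as a block or taken singly, and each region or dye orientation left out.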

Additional observations from a re-analysis of the deposited data

Results flagged for a closer look

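A value was picked out where its gap to the nearest of its group was large against the whole range of that group. This was done for 33 groups of region values and 66 groups of 4 saline channels, and chance alone picks out about 5% of groups. Abcg2 at the low dose was picked out in ventral striatum, where its log2 ratio of 0.75 stood above the next region at 0.56 and the lowest at 0.48. The dimmer Flt1 probe was picked out in hippocampus for the difference between doses, with -0.18 against 0.02 in the next region and 0.12 in the highest.

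The other cases were single saline channels, in log2 brightness. The brighter Abcc4 probe read 7.61 on 1 amygdala array, with the others between 7.91 and 7.94. It read 7.07 on 1 ventral striatum array, with the others between 7.74 and 7.79, and 7.26 on 1 hypothalamus array, with the others between 8.07 and 8.17. The dimmer Abcc4 probe read 6.52 on 1 hippocampus array (others 6.84 to 6.88) and 6.68 on 1 amygdala array (others 6.77 to 6.79). Slc7a5 read 8.95 on 1 midbrain array (others 9.13 to 9.16). The dimmer Flt1 probe read 8.06 on 1 amygdala array (others 6.70 to 6.89).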

How the results depend on the processing

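The Abcg2 mean stayed between 0.63 and 0.76 for the high dose, 0.51 and 0.65 for the low dose, and 0.10 and 0.16 for high minus low in the settings tried. As a description, median centring in place of loess left Abcg2 alone of the members past the threshold for the high dose (without Kdr and Slc2a1) and took Slco1c1 away for the low dose. Scan day as a block took Slco1c1 and Slc2a1 away for the low dose, and no filter on dim probes took Slco1c1. Leaving out any single region also took Slco1c1 away for the low dose. Slc2a1 was lost for the high dose without the cortex, hippocampus, ventral striatum or midbrain. For the low dose Slc2a1 was lost without the cortex, hypothalamus or midbrain. Kdr was lost for the high dose without the cortex or ventral striatum. Abcg2 at each dose and Kdr at the low dose were kept with each region left out. For the difference between doses, Abcg2 and Kdr passed when the amygdala was left out, and no member passed in the other settings. The number of probes past the threshold at the high dose was 554, against 257 with median centring, 163 within scan day 2 and 130 within scan day 3. At the low dose it was 673, against 184, 126 and 296 within scan days 1, 2 and 3. Between the doses it was 440, against 132 with median centring and 261, 95 and 119 within scan days 1, 2 and 3; a scan day holds only 2 regions. Leaving out a region or a dye orientation gave 315 to 8980 at the high dose, 421 to 9883 at the low dose and 187 to 377 between doses. The highest counts came from single orientations, which keep the dye effect. High-dose counts were 315 without the cortex, 342 without the amygdala and 332 without the ventral striatum, and low-dose counts 441 without the cortex and 421 without the ventral striatum. Of 66 saline levels by region, 47 moved by less than their SD when processed signals minus their 75th percentile were used, and 19 moved by more. The difference between doses was taken within each region. Pairing by animal was not possible because the replicate numbers mark the dye orientation of the arrays of a pair. Each comparison rests on 6 regions of the same rats, so the spread between animals was not measured.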
